A study of Rattus norvegicus with 12 samples.

Results

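Heterotrimeric G protein alpha subunits and the RGS (regulator of G protein signalling) genes were followed in pancreatic islets of Sprague Dawley rats. The group was taken by name from a table of transcript counts: every symbol of the form Gna or Rgs followed by its subtype, with Rgs5 left out, and for each symbol the transcript with the highest mean count. This gave 35 genes of 25888 symbols, 16 alpha subunits and 19 RGS genes. The family was picked because Gnat3 and Rgs11 differed between groups, so the values of these 2 genes are described here without a test. Of the 35, 34 had enough counts to be tested and 32 are tested below; Rgs20 had too few counts.

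The 12 libraries form 4 groups of 3. Intrauterine growth restriction (IUGR) followed from ligation of both uterine arteries of the dam on embryonic day 18, and litters of controls were reduced to 8 pups. Rats of both kinds were studied 2 weeks and 10 weeks after birth, all on standard chow, and islet RNA without ribosomal RNA was sequenced with a stranded kit. The labels call the 3 libraries of a group biological replicates. They name no operation on control dams and give neither the sex nor any pooling of animals, so p-values measure the spread between these libraries, which may be technical in part.

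A G protein alpha subunit binds GTP when a receptor is activated, leaves its beta and gamma partners and acts on an enzyme or channel until it hydrolyses the GTP. RGS proteins speed up that hydrolysis and so shorten the signal. In beta cells the Gs class raises cAMP and favours insulin release, the Gi/o class (with Gz) lowers cAMP and restrains release, and the Gq class acts through phospholipase C beta and calcium. Among RGS proteins the R7 family (Rgs6, Rgs7, Rgs9, Rgs11) is set apart by its need for the beta subunit Gnb5, and the R4 family holds small RGS proteins that act on Gi/o and Gq.

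Libraries held 30.4 to 64.2 M counts (M, mega). The share of counts in 24 genes of acinar cells (the enzyme-secreting cells of the exocrine pancreas) ran from 19.6% to 38.4% in controls and 3.98% to 8.51% in IUGR libraries at 2 weeks. At 10 weeks it was 40.2%, 12.95% and 44.0% in control replicates 1, 2 and 3 and 0.571% to 2.15% in IUGR libraries. Control replicates 1 and 3 at 10 weeks had the highest shares of the 12 libraries, above a cut set at 40%, with 2-week control replicate 1 next at 38.4%. The values at 10 weeks are therefore given with and without control replicates 1 and 3 of that age. Summed levels of 10 beta cell markers were also apart at 10 weeks, 94140 to 141675 CPM in controls and 176480 to 190985 CPM in IUGR libraries. CPM here are counts per M counts of the library, after scaling of library size by the trimmed mean of M-values (TMM). In such bulk samples fewer cells of a type and less RNA per cell cannot be told apart.

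Gnat3 encodes gustducin alpha, the Gi-type subunit of taste receptor cells and chemosensory tuft cells. Its counts in control replicates 1 to 3 were 127, 125 and 306 at 2 weeks and 15, 21 and 12 at 10 weeks. In IUGR replicates they were 189, 150 and 206 at 2 weeks and 109, 23 and 52 at 10 weeks. On the scaled basis the 10-week controls stood at 0.48, 0.49 and 0.44 CPM and the 10-week IUGR libraries at 3.03, 0.57 and 1.28 CPM. The groups did not overlap at 10 weeks, IUGR replicate 2 lay next to the controls, and replicate 1 lay highest. The 2-week groups overlapped, with 4.03 ± 1.81 CPM in controls and 2.82 ± 0.57 CPM in IUGR libraries (SD, n = 3 each). The fitted log2 fold change of IUGR over control was 1.78 at 10 weeks, 1.73 without control replicates 1 and 3, and 0.98 without IUGR replicate 1. It was -0.52 at 2 weeks, and from 2 to 10 weeks it was -3.09 in controls and -0.79 in IUGR libraries. Gnat3 thus had a low level in all 3 older controls, and the older IUGR libraries spread between that level and the 2-week range.

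Rgs11 encodes an R7 family member best known from retinal bipolar cells. Its level was 45.0, 31.6 and 36.9 CPM in 2-week controls and 16.1, 15.0 and 14.6 CPM in 2-week IUGR libraries. At 10 weeks it was 24.8, 21.5 and 25.2 CPM in controls and 33.7, 29.5 and 36.6 CPM in IUGR libraries. Rgs11 was lower in every IUGR library than in any control at 2 weeks and higher in every IUGR library than in any control at 10 weeks. The ratio of group means was 0.403 at 2 weeks and 1.40 at 10 weeks, and the fitted log2 fold changes were -1.31 and 0.49. Without control replicates 1 and 3 the 10-week value was 0.66, and in a fit with the acinar level (mean log2 CPM of the 24 genes) as covariate the values were -1.16 at 2 weeks and 0.79 at 10 weeks. The ratio of the 10-week to the 2-week mean was 0.629 in controls and 2.18 in IUGR libraries.

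**Figure D1:**
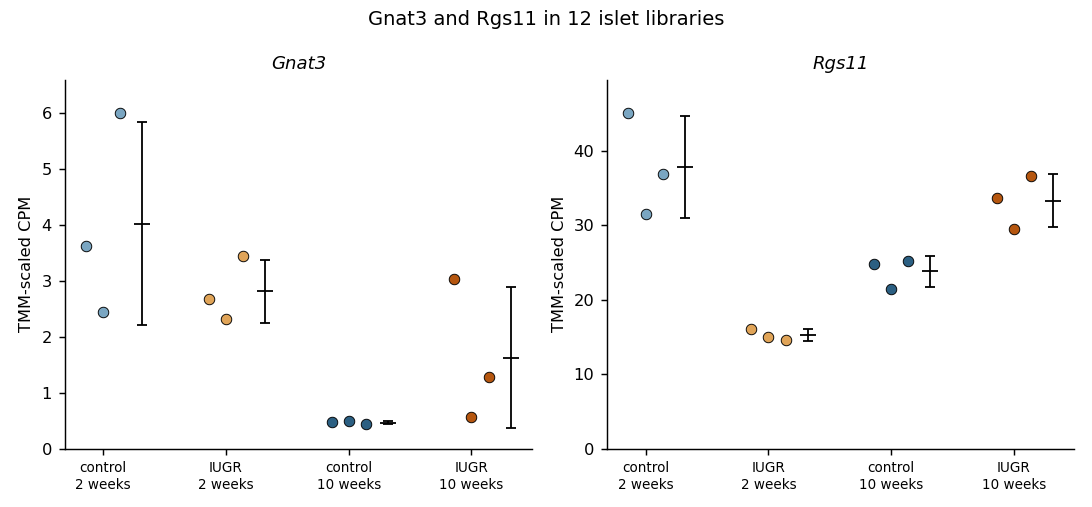
TMM-scaled CPM (vertical axis, from 0) of Gnat3 and Rgs11 in the 12 libraries by group; points are libraries, bars beside them the mean ± SD (n = 3). Gnat3 lies between 0.44 and 0.49 CPM in the 10-week controls, and Rgs11 has its lowest values, 14.6 to 16.1 CPM, in the 2-week IUGR libraries.

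Promoter sequence was read for the members whose patterns are described most closely and that a RefSeq table of the rat build GRCr8 holds. That table matched 27 of the 35 genes, 77.1%, fewer than the 80% needed to compare the family with other promoters, so only single promoters are described. Shown are Gnat3, Rgs6 (the one tested member whose IUGR effect passed as different between ages), and Rgs7 and Rgs9 (which rose together with age). Each is given as the 250 bases before the annotated start, 5′ to 3′ on the gene's strand. Matches to the TATA box (spelled TATAAA), the box named by its letters CCAAT, the GC box (spelled GGGCGG) and the cAMP response element (spelled TGACGTCA) were searched on both strands, and matches are in capitals. The windows are chr4:18104333-18104582 on the minus strand for Gnat3, chr6:107996245-107996494 on the plus strand for Rgs6, chr13:89941051-89941300 on the minus strand for Rgs7 and chr10:94770388-94770637 on the minus strand for Rgs9.
Gnat3: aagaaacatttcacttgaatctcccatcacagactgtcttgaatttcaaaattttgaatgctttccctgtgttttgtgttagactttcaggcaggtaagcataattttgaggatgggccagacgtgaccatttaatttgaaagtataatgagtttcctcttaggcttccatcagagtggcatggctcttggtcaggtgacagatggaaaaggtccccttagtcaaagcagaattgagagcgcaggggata
Rgs6: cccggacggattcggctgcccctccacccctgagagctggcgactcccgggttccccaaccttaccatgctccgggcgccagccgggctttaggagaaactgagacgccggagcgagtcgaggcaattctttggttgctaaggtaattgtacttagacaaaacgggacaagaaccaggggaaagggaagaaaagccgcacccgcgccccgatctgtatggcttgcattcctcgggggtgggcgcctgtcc
Rgs7: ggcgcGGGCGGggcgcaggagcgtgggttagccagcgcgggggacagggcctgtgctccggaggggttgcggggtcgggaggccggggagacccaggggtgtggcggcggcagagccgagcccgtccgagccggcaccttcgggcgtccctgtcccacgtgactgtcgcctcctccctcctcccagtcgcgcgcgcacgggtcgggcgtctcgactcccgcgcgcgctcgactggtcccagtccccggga
Rgs9: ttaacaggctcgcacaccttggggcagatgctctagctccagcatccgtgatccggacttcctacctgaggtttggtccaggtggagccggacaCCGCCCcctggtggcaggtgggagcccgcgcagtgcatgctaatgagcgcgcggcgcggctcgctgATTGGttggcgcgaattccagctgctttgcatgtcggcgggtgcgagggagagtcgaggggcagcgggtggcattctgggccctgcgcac
The Rgs7 and Rgs9 windows each held 1 match to GGGCGG, which 30.5% of all promoter windows of this length hold (in Rgs9 on the opposite strand, as CCGCCC), and Rgs9 also held 1 CCAAT match on the opposite strand (ATTGG), found in 34.02% of all windows. The Gnat3 and Rgs6 windows held none of the 4 motifs. G and C made up 41.6% of the Gnat3 window, 61.2% of Rgs6, 77.2% of Rgs7 and 65.6% of Rgs9.

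IUGR and control islets were compared at 10 weeks first. Of the 32 tested members 6 were higher in IUGR islets (Gnai1, Gnaq, Rgs4, Rgs7, Rgs9 and Rgs17), 2 were lower (Gna14 and Rgs6) and 24 did not pass. The background was 12.4% of the 20733 transcripts tested called higher and 15.5% called lower, 27.9% in either direction (edgeR quasi-likelihood test, Benjamini-Hochberg adjusted p under 0.05, used throughout). The share of members called, 8 of 32, is near that background and is no result about the family as a whole. The median log2 fold change of the 32 was 0.00 and that of all transcripts -0.01.

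Among the Gq class, Gna14, a Gq relative with a restricted range of tissues, fell furthest. It stood at 4.34, 3.46 and 6.39 CPM in 10-week controls and at 1.73, 1.12 and 0.57 CPM in IUGR libraries, with no overlap. The log2 fold change was -2.05 ± 0.42 (± standard error here and below, adjusted p = 0.00646, n = 3 per group). Its level beside the acinar share was 9.67 CPM at 38.4%, 6.55 CPM at 20.6% and 4.47 CPM at 19.6% in 2-week controls. In 10-week controls Gna14 stood at 4.34 CPM at 40.2%, 3.46 CPM at 12.95% and 6.39 CPM at 44.0%. In the fit with the acinar covariate its value was -0.10 ± 0.70 (adjusted p = 0.942), and without control replicates 1 and 3 it was -1.59 (adjusted p = 0.0599).

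Gnaq, which carries muscarinic and other calcium-raising signals, was higher. It measured 29.1, 30.2 and 27.9 CPM in controls and 36.7, 33.3 and 34.7 CPM in IUGR libraries (log2 fold change 0.26 ± 0.08, adjusted p = 0.0360). Every IUGR library lay above every control, but the difference was small. Gna11, its close relative, stood at -0.20 ± 0.14 (adjusted p = 0.299) and Gna15, the Gq-class subunit of blood cells, at -0.48 ± 0.43 (adjusted p = 0.436).

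In the Gi/o class Gnai1 was higher at 18.3, 17.3 and 20.04 CPM in IUGR libraries against 15.0, 14.7 and 14.8 CPM in controls (log2 fold change 0.32 ± 0.10, adjusted p = 0.0387). The 10-week controls were nearly level with each other. Gnaz, the pertussis-toxin-resistant Gz subunit, had the larger value of 0.56 ± 0.20 and did not pass (adjusted p = 0.0613), although its groups did not overlap. Gnai2 (0.26 ± 0.13, adjusted p = 0.164), Gnai3 (-0.18 ± 0.10, adjusted p = 0.182) and Gnao1, the neuronal and endocrine Go subunit (0.05 ± 0.18, adjusted p = 0.876), did not pass either. The rod and cone transducins Gnat1 and Gnat2 stayed at or below 1.22 CPM in every library and did not pass.

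Of the Gs class, Gnas, the ubiquitous stimulatory subunit from an imprinted locus, stood at 644, 562 and 453 CPM in controls and 1120, 567 and 790 CPM in IUGR libraries. The ranges overlapped, and the log2 fold change of 0.58 ± 0.23 did not pass (adjusted p = 0.0832). Gnal, the olfactory Gs subunit, had 3 to 6 counts in each 10-week library. Gna12 (-0.08 ± 0.12) and Gna13 (-0.03 ± 0.14), the 2 members of the G12/13 class, did not pass (adjusted p = 0.654 and 0.902).

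Among RGS genes the R7 family divided at 10 weeks. Rgs9, known from rods and striatal neurons, stood at 10.2, 9.26 and 7.81 CPM in controls and 15.7, 13.4 and 17.2 CPM in IUGR libraries (log2 fold change 0.76 ± 0.17, adjusted p = 0.00903). Rgs7, a neuronal R7 member, stood at 13.1, 12.2 and 10.4 CPM against 15.4, 16.02 and 22.1 CPM (0.58 ± 0.18, adjusted p = 0.0329). Both had every IUGR library above every control. In the same comparison 5 of 10 beta cell markers passed as higher, with a median log2 fold change of 0.69. Their part in the higher values of Rgs9 and Rgs7, and of Rgs17 and Gpr158 below, was not tested. Rgs6, known for braking parasympathetic signals in the heart, went the other way, from 1.36, 2.77 and 2.01 CPM in controls to 0.92, 0.65 and 0.67 CPM in IUGR libraries. Its log2 fold change was -1.47 ± 0.31 (adjusted p = 0.00748), and its groups did not overlap. The 3 IUGR libraries held 86 Rgs6 counts in all and the 3 controls 216.

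Rgs17, an RZ family member that acts on Gz and other Gi/o subunits, had the largest rise of the tested members. It measured 12.5, 11.9 and 8.65 CPM in controls and 22.3, 20.4 and 23.1 CPM in IUGR libraries (log2 fold change 0.99 ± 0.20, adjusted p = 0.00654). The lowest IUGR library was well above the highest control. Rgs4, an R4 member known to restrain muscarinic insulin release in beta cells, stood at 70.5, 82.9 and 85.4 CPM in controls and 123, 98.1 and 100 CPM in IUGR libraries (0.43 ± 0.15, adjusted p = 0.0478). Its p lay just under the threshold. Rgs16, an R4 gene active in endocrine progenitors, stood at -0.74 ± 0.40 (adjusted p = 0.188), and Rgs2, which restrains Gq, at 0.03 ± 0.29 (adjusted p = 0.959).

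**Figure D2:**
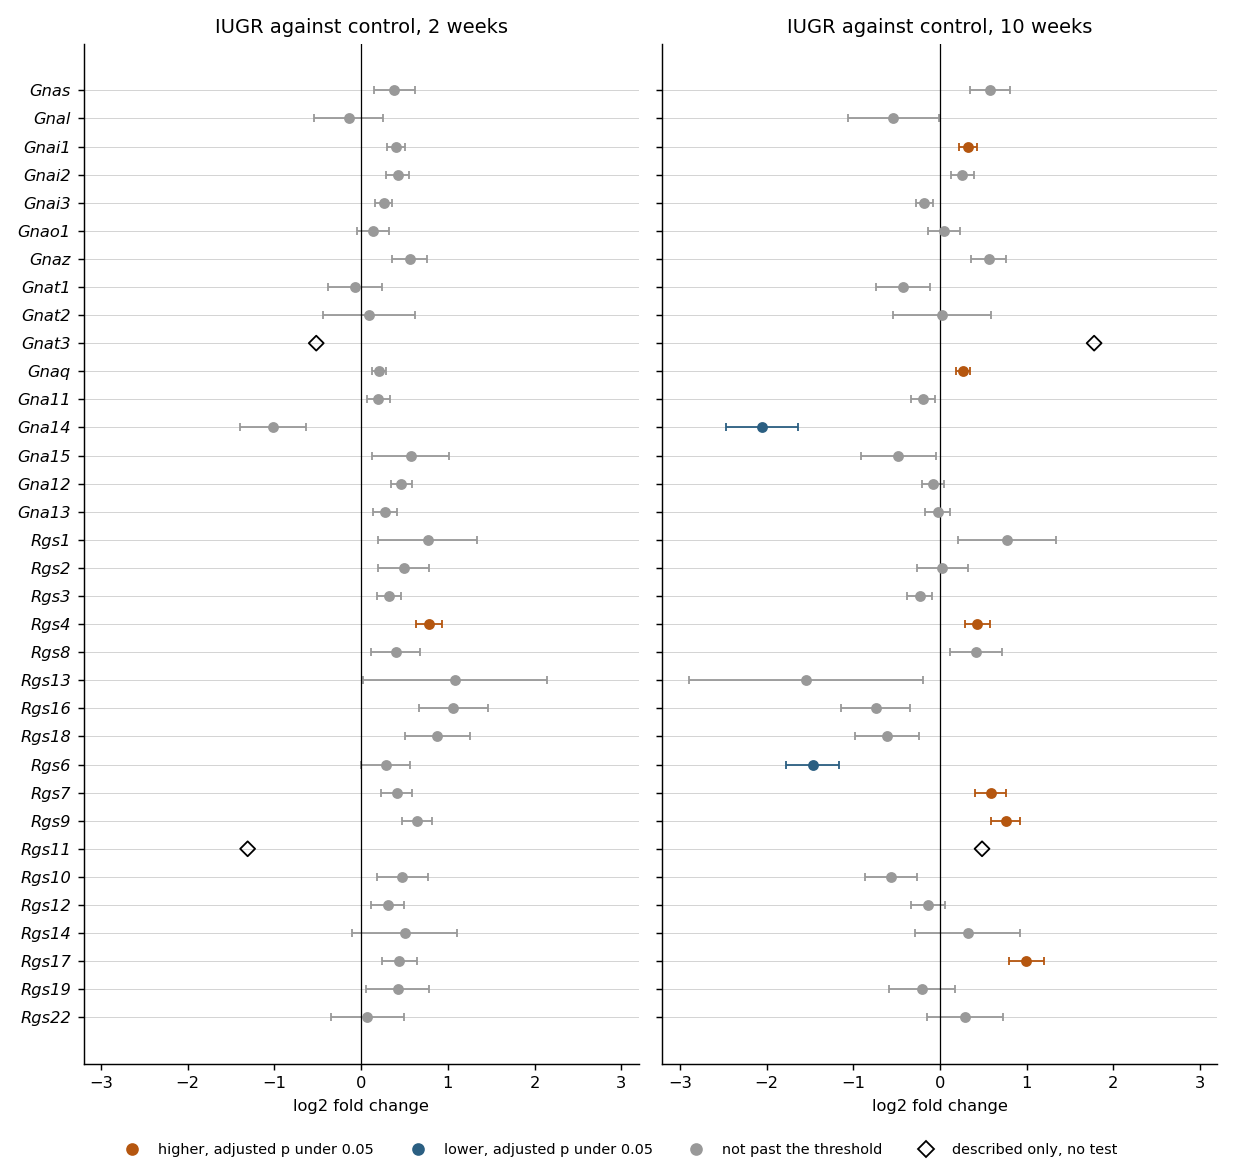
Log2 fold change of IUGR over control (horizontal axis) for 34 genes at 2 weeks (left) and 10 weeks (right), with bars for the standard error; colour gives the call at an adjusted p under 0.05, and open diamonds mark Gnat3 and Rgs11, which are described without a test. At 10 weeks 6 genes lie to the right and Gna14 and Rgs6 to the left among those that passed, and at 2 weeks Rgs4 alone passed.

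Setting aside control replicates 1 and 3 left replicate 2 as the single 10-week control, assumed to vary like the other groups. In that fit none of the 6 higher members passed, while their values stayed positive: 0.91 for Rgs17 (adjusted p = 0.0505), 0.76 for Rgs9 (0.0560), 0.57 for Rgs7 (0.150), 0.39 for Rgs4 (0.219), 0.36 for Gnai1 (0.144) and 0.23 for Gnaq (0.213). Rgs6 stood at -1.88 in that fit, where the single control left was the highest for Rgs6 (2.77 CPM against 1.36 and 2.01 CPM). Rgs12, an R12 family scaffold that also binds Ras, stood at -0.50 there and did not pass with all libraries (-0.14 ± 0.20, adjusted p = 0.625). The control left was also the highest for Rgs12, at 12.9 CPM against 6.53 and 10.3 CPM. In the fit with the acinar covariate, which differs between the 10-week groups itself and widens the errors, the values were 0.36 ± 0.48 for Rgs17, 0.48 for Rgs9, -0.06 for Rgs7, 0.12 for Rgs4, 0.13 for Gnai1 and 0.00 for Gnaq, none of them passing (adjusted p = 0.476 to 0.999). Rgs6 passed with the covariate at -2.79 ± 0.56 (adjusted p = 0.0193), and so did Rgs3, an R4 member, at -0.96 ± 0.26 (adjusted p = 0.0467). When each of the 6 libraries was left out in turn, Rgs9, Rgs17, Gna14 and Rgs6 passed every time and Rgs4 never did. Rgs7 did not pass without control replicate 2, control replicate 3 or IUGR replicate 3. Gnaq did not pass without control replicate 3, IUGR replicate 1 or IUGR replicate 3, nor did Gnai1, which also did not pass without control replicate 2.

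**Figure D3:**
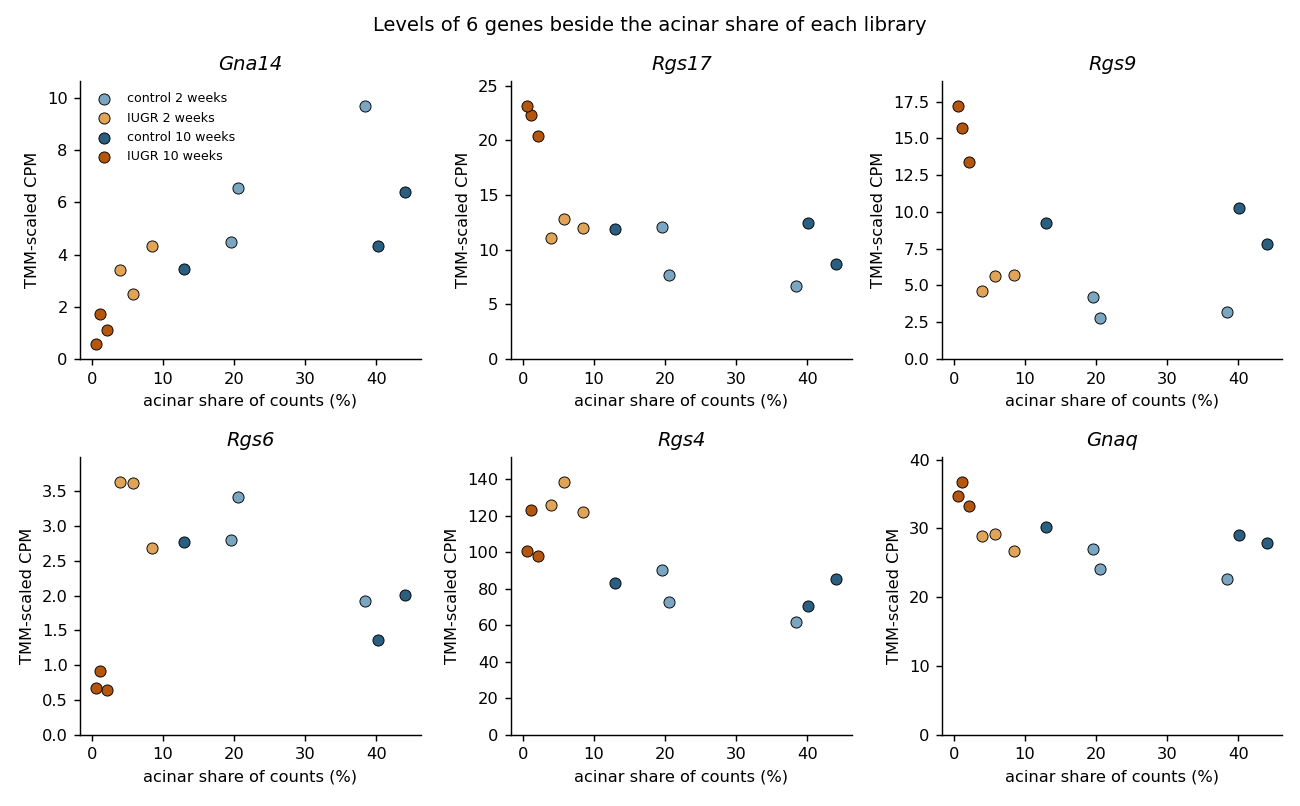
TMM-scaled CPM of 6 genes (vertical axes, from 0) against the share of counts in 24 acinar genes (horizontal axis, %), 1 point per library, coloured by group. The IUGR libraries lie at shares up to 8.51%; Gna14 has its lowest values, 0.57 to 1.73 CPM, at the lowest shares, and so does Rgs6, although the 2-week IUGR libraries at 3.98% to 8.51% hold 2.69 to 3.63 CPM of Rgs6.

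At 2 weeks Rgs4 alone of the 32 tested members passed, as higher in IUGR islets, against a background of 1.66% of transcripts called higher and 2.21% lower, 3.88% in all. Rgs4 stood at 61.5, 72.7 and 90.5 CPM in controls and 138, 126 and 122 CPM in IUGR libraries, with no overlap. Its log2 fold change was 0.78 ± 0.15 (adjusted p = 0.0359). In the fit with the acinar covariate the value was 0.64 ± 0.21 (adjusted p = 0.316). The call ended on leaving out any 1 of the 6 libraries other than control replicate 3, and without that library 8 members passed as higher: Gna12, Gnai1, Gnai2, Gnaz, Rgs4, Rgs7, Rgs9 and Rgs17. DESeq2 passed 7 as higher, Gna12, Gnai1, Gnai2, Gnai3, Rgs4, Rgs9 and Rgs16. The share of all transcripts called in either direction went up as well, to 11.2% without that library and 16.1% with DESeq2.

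The members as a whole had a median log2 fold change of 0.41 at 2 weeks, with 29 of 32 above 0, beside a median of 0.05 over all transcripts, of which 55.5% were above 0. Markers of most other cell types lay above 0 too, with medians of 0.95 for neuron and Schwann cells, 0.74 for pericytes and smooth muscle, 0.68 for fibroblasts, 0.55 for lymphoid cells, 0.54 for myeloid cells, 0.52 for endothelial cells and for delta and PP cells, 0.36 for alpha cells and 0.32 for beta cells. Acinar markers had a median of -2.63 and ductal markers of -1.30. Their part in the values of the members was not tested. Nearest to the threshold were Gnai1 (0.40 ± 0.10, adjusted p = 0.0525), Gna12 (0.46 ± 0.12, adjusted p = 0.0566) and Rgs9 (0.65 ± 0.17, adjusted p = 0.0568). Gna14 again had the lowest value, -1.01 ± 0.38 (adjusted p = 0.121). Control replicate 1 was the 2-week library with the highest acinar share. It was the lowest of the 6 for every tested member except Gna11, Gna14, Gnai1, Gnai3, Gnal, Gnat1, Rgs8 and Rgs9. For Rgs16 it stood at 3.95 CPM against 11.6 to 28.5 CPM in the others.

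Whether the IUGR effect differed between ages was tested directly. Of the 32 members Rgs6 alone passed, as a more negative effect at 10 than at 2 weeks (log2 difference -1.75 ± 0.42, adjusted p = 0.0191), against a background of 3.97% of transcripts called in the positive and 10.4% in the negative direction, 14.3% in all. Its 2-week effect was 0.28 ± 0.28 and its groups overlapped there, at 1.92, 3.42 and 2.80 CPM in controls and 3.61, 3.63 and 2.69 CPM in IUGR libraries. The difference kept its sign when any 1 library was left out (-1.95 to -1.38) and missed the threshold without IUGR replicate 2 at 2 weeks (adjusted p = 0.0502). It was -2.18 without control replicates 1 and 3 at 10 weeks, which left the 10-week control with the highest Rgs6 level. With the acinar covariate the difference was -2.42 and passed (adjusted p = 0.00390). Markers of several cell types passed the same test in the same direction: 8 of 8 for fibroblasts (median -2.35), 9 of 10 for endothelial cells (-1.53), 7 of 10 for neuron and Schwann cells (-2.23), 8 of 24 for acinar cells (-3.13), 5 of 9 for pericytes and smooth muscle (-1.19) and 3 of 8 for myeloid cells (-1.33). Their part in the value of Rgs6 was not tested. Other fits passed further members, all in the negative direction: DESeq2 also passed Gna12, Gnai3, Rgs3, Rgs16 and Rgs18 (20.8% of all transcripts called), and the fit with the acinar covariate also passed Gna12, Rgs3 and Rgs12 (22.6%).

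**Figure D4:**
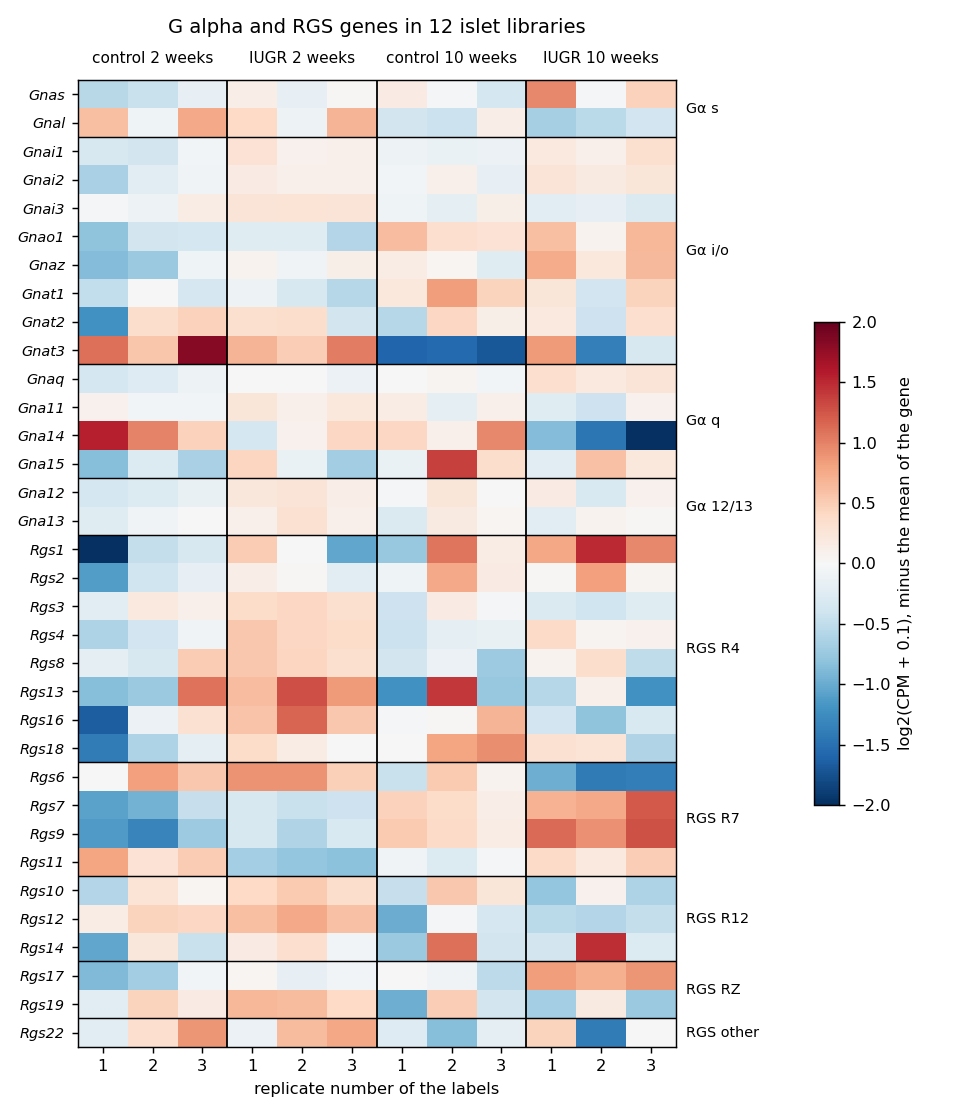
Log2(CPM + 0.1) of 34 genes in the 12 libraries, minus the gene's own mean (colour, from -2 blue to 2 red); rows are grouped by class, columns by group and replicate number. Rgs7 and Rgs9 are red in both 10-week groups and blue in both 2-week groups, Rgs6 is blue in the 3 IUGR libraries at 10 weeks, and Gnat3 is darkest blue in the 10-week controls.

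Rgs9 and Rgs7 were higher at 10 than at 2 weeks in both groups. Rgs9 rose from 3.39 ± 0.74 to 9.10 ± 1.22 CPM in controls (SD, n = 3 each; log2 fold change 1.42 ± 0.17, adjusted p = 0.000330). In IUGR islets it rose from 5.32 ± 0.60 to 15.4 ± 1.9 CPM (1.53 ± 0.17, adjusted p = 3.25e-05). Rgs7 rose from 5.38 ± 1.27 to 11.9 ± 1.4 CPM in controls (1.14 ± 0.18, adjusted p = 0.00122) and from 7.16 ± 0.32 to 17.8 ± 3.7 CPM in IUGR islets (1.32 ± 0.18, adjusted p = 0.000121). Both genes kept these calls in all 16 alternatives run for each ageing comparison, among them those without control replicates 1 and 3 and with the acinar covariate. Each ageing comparison shares 3 libraries with the IUGR comparison at each age, so its calls are not independent of those above. Beta cell markers also rose with age: all 10 passed as higher in each group, and their part in the rise of Rgs7 and Rgs9 was not tested.

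In controls 7 members passed with age, 6 higher and 1 lower, of 32, beside 17.2% of all transcripts called higher and 15.1% lower (32.3% in all). The largest after Rgs9 were Gna15 (1.37 ± 0.45, adjusted p = 0.0383), Rgs18, an RGS gene of platelets and other blood cells (1.35 ± 0.38, adjusted p = 0.0199), and Rgs7. Gna15 rose from 0.65 ± 0.16 to 1.67 ± 0.98 CPM and Rgs18 from 0.88 ± 0.38 to 2.28 ± 0.75 CPM (SD, n = 3 each). In the same controls the summed level of 10 lymphoid markers went from 4.95 to 25.6 CPM at 2 weeks to 15.1 to 166 CPM at 10 weeks. That of 8 myeloid markers went from 24.2 to 49.9 CPM to 34.2 to 82.7 CPM. The part of either was not tested. Gnao1 rose from 6.32 ± 1.09 to 12.05 ± 1.54 CPM (0.93 ± 0.19, adjusted p = 0.00402), Gnaq by 0.24 ± 0.08 (adjusted p = 0.0449), and Rgs12 fell by 0.74 on the log2 scale (adjusted p = 0.0145). Without control replicates 1 and 3 Gna15, Rgs2, Rgs7 and Rgs9 passed as higher. Gna15 did not pass on leaving out any single 2-week control or 10-week control replicate 2, its highest library at 2.77 CPM. Rgs18 did not pass without 2-week control replicate 1 or 2 or without 10-week control replicate 3, and Gnaq and Rgs12 each lost the call in some of these fits too.

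In IUGR islets 16 of 32 passed with age, 6 higher and 10 lower, beside 27.3% and 29.2% of all transcripts (56.5% in all). Rgs6 fell from 3.31 ± 0.54 to 0.74 ± 0.15 CPM (SD, n = 3 each; log2 fold change -2.15 ± 0.30, adjusted p = 0.000153). Gna14 fell from 3.41 ± 0.90 to 1.14 ± 0.58 CPM (-1.59 ± 0.41, adjusted p = 0.00682), a call lost with the acinar covariate (-0.87, adjusted p = 0.0833). Gnal went from 20, 11 and 22 counts to 3, 4 and 5 counts (-1.39 ± 0.46, adjusted p = 0.0235). The other decreases were those of Gna11, Gnai3, Rgs3, Rgs10, Rgs12, Rgs16 and Rgs19, from -1.28 to -0.36. Markers of several cell types passed as lower in the same comparison. They were 8 of 8 for fibroblasts (median -3.70), 9 of 9 for pericytes and smooth muscle (-1.90) and 9 of 10 for endothelial cells (-1.57). Others were 7 of 10 for neuron and Schwann cells (-2.67), 13 of 24 for acinar cells (-2.19) and 4 of 6 for alpha cells (-1.29). All 10 beta cell markers passed as higher (2.07). The part of these cells was not tested. Rgs6, Gna14, Gnai3, Rgs3 and Rgs12 passed whichever single library was left out, and Gnal passed only without 2-week IUGR replicate 2 or 10-week IUGR replicate 3. Rgs10 and Rgs19 passed only without 10-week IUGR replicate 2 and Gna11 only without 10-week IUGR replicate 3, while Rgs16 did not pass without replicate 2 of either age. Beside Rgs7 and Rgs9 the increases were those of Gnao1 (0.83 ± 0.18), Rgs17 (0.87 ± 0.20), Gnaz (0.51 ± 0.20) and Gnaq (0.30 ± 0.08), of which Gnaz passed only in the fit without 10-week IUGR replicate 2 when 1 library was left out. Gnas, with 2 transcripts in the table, stood at 0.51 for the abundant one without passing, while its second transcript, at a much lower count, stood at -1.96 (adjusted p = 0.00182) and with age in controls at -1.60 (adjusted p = 0.0127).

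Rgs20 had 13, 36, 7 and 0 counts summed over 2-week controls, 2-week IUGR, 10-week controls and 10-week IUGR libraries; a count of 0 allows up to 0.0741 to 0.0835 CPM in the single 10-week IUGR libraries, where 3 counts set the limit for counting error only. Rgs13, an RGS gene of B cells and mast cells, had 0 to 30 counts per library. Rgs1, the lymphocyte RGS gene, ranged from 0.94 to 15.2 CPM over the libraries, with log2 fold changes of 0.77 ± 0.57 and 0.77 ± 0.56 at 2 and 10 weeks (adjusted p = 0.393 and 0.329). Rgs1, Rgs2, Rgs8, Rgs13, Rgs14 and Rgs22 passed in none of the 5 comparisons by edgeR with all libraries, nor did Gna12, Gna13, Gnai2, Gnas, Gnat1 and Gnat2.

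Partners of the R7 family were followed as a list of 5 genes. Gpr158, a receptor that anchors R7 complexes at the membrane, rose most. It stood at 65.4, 50.7 and 50.7 CPM in 10-week controls and 117, 93.6 and 119 CPM in 10-week IUGR libraries (log2 fold change 0.98 ± 0.17, adjusted p = 0.00356). With age it rose by 1.83 ± 0.18 in controls and 2.43 ± 0.18 in IUGR islets (adjusted p = 0.000121 and 3.47e-06). Its 10-week groups did not overlap, and Gpr158 passed without control replicates 1 and 3 (1.14, adjusted p = 0.0166) but not with the acinar covariate (0.70, adjusted p = 0.333). Gnb5, the beta subunit that stabilises R7 proteins, had 0.48 ± 0.17 at 10 weeks and did not pass (adjusted p = 0.0545). Rgs7bp, a membrane anchor of R7 complexes, had 0.83 ± 0.23 at 2 weeks (adjusted p = 0.0633) and -0.74 ± 0.27 at 10 weeks (adjusted p = 0.0580), and the difference between these passed (-1.58 ± 0.35, adjusted p = 0.0149). Rgs9bp, the anchor of Rgs9 in photoreceptors, stayed below 0.24 CPM in each group mean. In IUGR islets Gnb5 and Gpr158 rose and Rgs7bp and Gpr179 fell with age, 2 higher and 2 lower of 5 tested, beside 56.5% of all transcripts called. Between IUGR and control at 10 weeks 1 of the 5 passed, beside 27.9% of all transcripts.

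**Figure D5:**
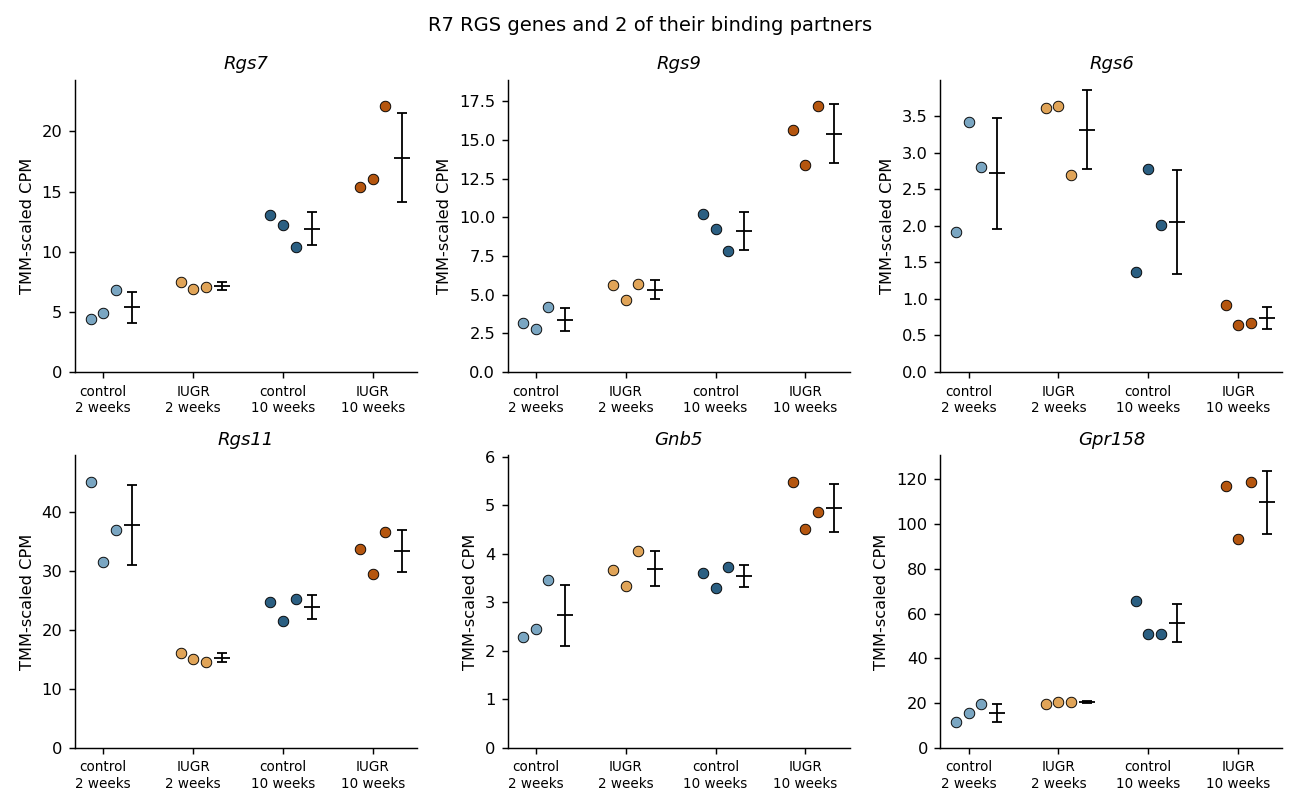
TMM-scaled CPM (vertical axes, from 0) of the 4 R7 genes and of their partners Gnb5 and Gpr158 by group; points are libraries, bars beside them mean ± SD (n = 3). Rgs7, Rgs9 and Gpr158 step up from 2 to 10 weeks in both groups, Rgs6 is lowest in 10-week IUGR libraries at 0.65 to 0.92 CPM, and Rgs11 is lowest in 2-week IUGR libraries.

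Gnat3's partners in taste signalling were the next list. Of 8 genes found and tested, 1 was higher and 2 were lower at 10 weeks, beside 12.4% and 15.5% of all transcripts. Trpm5, the cation channel of taste cells that beta cells also use, stood at 48.4, 25.8 and 27.1 CPM in 10-week controls and 63.0, 60.9 and 55.1 CPM in IUGR libraries (log2 fold change 0.82 ± 0.28, adjusted p = 0.0466). Its relative Trpm4 fell (-2.08 ± 0.31, adjusted p = 0.00192), as did the IP3 receptor Itpr3 (-0.63 ± 0.18, adjusted p = 0.0255). Gnb3 and Gng13, the beta and gamma subunits that join gustducin in taste cells, stood at 0.24 ± 0.66 and -1.17 ± 0.56 and did not pass (adjusted p = 0.817 and 0.142), nor did the sweet and umami receptor genes Tas1r1, Tas1r2 and Tas1r3 (-0.57, -0.02 and -0.56, adjusted p = 0.394, 0.881 and 0.139). Trpm5 passed without control replicates 1 and 3 (1.23, adjusted p = 0.0325) and not with the acinar covariate (1.39, adjusted p = 0.229). With age in controls, where Gnat3 was lower, Trpm5 rose by 1.89 ± 0.29 (adjusted p = 0.000926). The summed level of 11 tuft cell markers found was 30.6 to 32.1 CPM in 2-week controls, 32.8 to 43.1 CPM in 2-week IUGR, 46.4 to 58.6 CPM in 10-week controls and 65.3 to 74.9 CPM in 10-week IUGR libraries, and most of it at 10 weeks was Trpm5. Of the 7 that were tested, 1 was higher and 1 lower at 10 weeks. In the order of these groups Dclk1 had 1736, 3768, 787 and 474 counts and Avil had 417, 460, 233 and 248 counts. The defining factor Pou2f3 had 5, 10, 4 and 6 counts and Il25 had 4, 3, 0 and 2 counts, each summed over the 3 libraries of a group. The part of tuft cells in the level of Gnat3 was not tested.

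The other parts of the pathway had members in both directions at 10 weeks. Over all lists, those of R7 partners and taste signalling included, 13 of 90 tested genes were higher and 15 lower. That share of 31.1% is near the 27.9% of all transcripts and is no result about the pathway. Of 16 beta and gamma subunit genes tested, 2 were higher and 3 lower, among them Gng2 (1.03 ± 0.26, adjusted p = 0.0164), Gng10 (0.28 ± 0.08), Gng5 (-0.33 ± 0.07) and Gng11 (-0.88 ± 0.22). Their median log2 fold change was -0.09 beside -0.01 over all transcripts. Of 20 genes of cAMP synthesis and its targets, 5 were higher and 4 lower. The protein kinase A subunits Prkacb (0.43 ± 0.08, adjusted p = 0.00521) and Prkar1a (0.47 ± 0.11, adjusted p = 0.0130) and the cAMP sensor of beta cells Rapgef4 (0.64 ± 0.14, adjusted p = 0.00899) were higher, and the other cAMP sensor Rapgef3 was lower (-1.25 ± 0.30, adjusted p = 0.0130). Summed levels of 10 endothelial markers, a cell type known to express Rapgef3, were 529 to 904 CPM in 10-week controls and 339 to 451 CPM in 10-week IUGR libraries, and their part was not tested.

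Of 17 phosphodiesterase genes 3 were higher and 4 lower, with Pde1c (0.82 ± 0.12, adjusted p = 0.00196) and Pde3b, which degrades cAMP in beta cells (0.72 ± 0.18, adjusted p = 0.0135), among the first and Pde3a (-1.31 ± 0.29) and Pde2a (-1.15 ± 0.28) among the second. Of 10 genes of the phospholipase C beta branch Itpr2 (-0.69 ± 0.14, adjusted p = 0.00551) and Itpr3 passed, both lower, and of 6 effectors of G12 and G13 none passed by edgeR (2 with an unadjusted p under 0.05), while DESeq2 passed Rhoa and Rock2, the fit with the acinar covariate passed Rock2 as lower, and the fit without control replicates 1 and 3 passed Arhgef1 and Rock2 as lower. Of 12 other regulators of alpha subunits, Ric8b, a chaperone of Gs-class subunits, was higher (0.59 ± 0.09, adjusted p = 0.00208) and Arrb1, beta-arrestin 1, lower (-1.31 ± 0.18, adjusted p = 0.00155). Without control replicates 1 and 3 Gng2, Gng10, Prkaca, Prkar1b, Pde1c and Ric8b passed as higher among these lists, and Rapgef3, Pde2a, Pde3a and Arrb1 were among those lower. With the acinar covariate none passed as higher by edgeR, Gng10 coming nearest (0.61, adjusted p = 0.0521), while Rapgef3, Pde2a and Pde3a passed as lower.

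At 2 weeks 3 of the 90 genes tested in these lists passed, all higher in IUGR islets, a share of 3.33% that is near the 3.88% of all transcripts: Gpsm2, which holds Gi subunits in their GDP-bound form (0.62 ± 0.12, adjusted p = 0.0423), Prkar1a (0.47 ± 0.11, adjusted p = 0.0488) and Prkar2b (0.80 ± 0.16, adjusted p = 0.0429). The 10-week value of Prkar1a had the same sign, in libraries not shared with the 2-week comparison but in the same fit. Prkar1a passed at neither age with the acinar covariate.

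The annotation may limit some of these values. By the RefSeq annotation of GRCr8, Gnai3 overlaps Gnat2, Gnaz overlaps Rsph14, Gnal overlaps Chmp1b and Rgs20 overlaps Atp6v1h. Rgs12 overlaps 2 other coding genes, and Rgs6 and Rgs7 each overlap unnamed loci. Several further members, Gnat3 and Rgs9 among them, overlap only noncoding genes or pseudogenes. These are overlaps of whole gene spans, without regard to exons or strand. The strand setting of the counting is not given in the sources used here, so whether reads of such pairs were kept apart is not known. Rgs3, Rgs12, Gnas and Gnao1 had 2 transcripts each in the table, whose reads can have been counted for both.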

How the data were processed

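The authors deposited raw counts, whole numbers per Ensembl rat transcript with no normalization, per the file header; they were used as deposited. The tools TopHat2 2.0.9 and bedtools and the builds rn5 and mm9 appear in the submitters' processing notes with no role, and the sources used here give no counting rule or strand setting. In R 4.3.3, edgeR 4.0.16 kept 20733 of 30309 transcripts (filterByExpr) and fitted 4 group means with TMM factors and robust quasi-likelihood dispersions, and p-values were adjusted over all 20733. A standard error is |log2 fold change| divided by the root of the F statistic. The genes, lists and tests were chosen with earlier results of these data known. Values per library are given for members passing between IUGR and control, group means for the largest age changes, and up to 4 genes with the smallest p at 10 weeks for each pathway list; further genes were named after their values were seen. Alternatives were DESeq2 1.42.0, RLE factors, no count filter, a threshold of 0.1, a replicate block, the acinar covariate, abundant and acinar transcripts left out (the 20 most abundant), 1 transcript for each symbol, only the 6 libraries compared, 10-week controls over 40% acinar share left out, and each library left out. The main fit treats libraries of the same replicate number as unpaired. Correlations of their deviations from group means ran from -0.14 to 0.48 over 12 pairs, which cannot decide whether they are paired. The steps were tested on simulated counts. Depth was 30.4 to 64.2 M counts per library.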

Additional observations from a re-analysis of the deposited data

Results flagged for a closer look

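Of the 32 tested members Rgs6 alone passed the edgeR test of a difference in IUGR effect between the ages with all libraries. Its log2 difference was -1.75 (10 weeks minus 2 weeks, adjusted p = 0.0191, n = 3 per group). Gnat3 and Rgs11, described without a test, had fitted differences of 2.30 and 1.79. For Rgs6 the details follow. The effect was 0.28 at 2 weeks and -1.47 at 10 weeks. The call was lost without 2-week IUGR replicate 2 (adjusted p = 0.0502). Further members passed in other fits, up to 6 in all, a count reached with DESeq2, at an adjusted p under 0.1 and without 10-week control replicate 1. Fibroblast (8 of 8), endothelial (9 of 10) and neuron and Schwann cell markers (7 of 10) passed the same test in the same direction, and their part was not tested.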

How the results depend on the processing

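Of 33 member fold changes past the threshold, 532 values under alternatives kept the call in 423 cases and lost it in 108, and 1 changed sign: Rgs7 at 10 weeks, -0.057 with the acinar covariate. The threshold of 0.1 reuses the main fit, so the calls kept there were kept by construction. Shares in parentheses are those of all transcripts called in the same fit. Members called at 2 weeks, 1 in the main analysis (3.88%), numbered 7 with DESeq2 (16.1%), 5 at an adjusted p under 0.1 (14.6%), 3 with the replicate block (5.9%), 0 with the acinar covariate (0%), 2 without abundant and acinar transcripts (4.73%), 4 without both 10-week controls of high acinar share (8.32%), 0 in the 6 libraries alone (0%) and 0 to 8 with 1 library left out (0% to 11.2%). At 10 weeks, with 8 (27.9%), they numbered 2 with the covariate (8.9%), 5 without abundant and acinar transcripts (26.6%), 2 without both controls (21.1%), 4 in the 6 libraries (18.1%) and 4 to 9 with 1 library left out (14.1% to 33.3%). For the difference between ages, with 1 (14.3%), they numbered 6 with DESeq2 (20.8%), 2 with RLE factors (14.2%), 6 at 0.1 (22.8%), 3 with the block (15.6%), 4 with the covariate (22.6%), 3 without abundant and acinar transcripts (14.5%), 5 without both controls (18%) and 0 to 6 with 1 library left out (8.37% to 23.6%). For age in controls, with 7 (32.3%), they numbered 11 at 0.1 (42.4%), 13 with the covariate (36.2%), 4 without both controls (17%), 3 in the 6 libraries (17.5%) and 3 to 10 with 1 library left out (21.6% to 32.5%). For age in IUGR islets, with 16 (56.5%), they stayed within 1.5 times, 11 to 14 with 1 library left out (47.9% to 50.7%). The replicate block gave 6 calls at 10 weeks, 7 with age in controls and 15 with age in IUGR islets. Beyond the fits with fewer samples, the cause of these shifts was not tested. Counts limit Gnal, Rgs13 and Rgs20, with 30 or fewer counts in each library.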
